A study of Homo sapiens with 2 samples.

Results

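BCL2L1 on the minus strand of chromosome 20 held 34 of the 23412 TARBP2-bound regions listed for MDA-LM2 cells, and 33 of the 34 lay inside 1 intron that makes up 93.3% of the gene. MDA-LM2 is a derivative of the human breast cancer line MDA-MB-231 with a high capacity to colonise the lung. The cells carried a transiently transfected vector for myc-tagged TARBP2 and were UV cross-linked 48 hours later. RNA joined to the tagged protein was recovered with an anti-myc antibody and sequenced (HITS-CLIP), in 1 group of 2 replicates. The processed data are 1 list of stranded regions for the group, on the hg19 build. The regions were taken by the rule that a minus-strand row overlaps chr20:30252255-30311792, the span of BCL2L1 (ENSG00000171552.12). The gene was singled out because its regions are many and close together in this list, so their number and density are a description and carry no test.

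The bound protein came from a vector, and no control library was analysed here. Each region has the score 1 and no value per replicate, so values below have no replicate error and the depth behind a region is unknown. The list holds no expression values, so the cell line could not be checked against marker genes, and more bound RNA cannot be told apart from more BCL2L1 RNA. The sources used here do not give how strand was assigned. Intervals and limits cover counting error only.

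BCL2L1 encodes regulators of apoptosis of the BCL2 family, which act at the mitochondrial outer membrane. Its coding sequence is split by a long intron. A choice between 5′ splice sites in the exon before that intron gives the long form Bcl-xL, which protects cells from death, or the short form Bcl-xS, which promotes it. TARBP2 binds double-stranded RNA and is best known for working with Dicer, the nuclease that cuts microRNA precursors.

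The exon layout was taken from GENCODE 29, which is on GRCh38, where the gene spans chr20:31664452-31723989. Both spans are 59538 nt long, so the model was laid on the hg19 span by a constant shift of 1412197 nt. Positions are counted from 1 at the 5′ end of the gene. The 9 annotated transcripts, all coding, together gave 3 exon blocks near the 5′ end, within positions 1 to 2335, and 1 last exon of 1635 nt at positions 57904 to 59538. Between them lies the long intron of 55568 nt, at positions 2336 to 57903, which makes up 93.3% of the gene. Transcript BCL2L1-201, with 699 coding nt, uses the downstream 5′ splice site, and BCL2L1-202, with 510 coding nt, the upstream one. The sequences that flank the intron are shown because they mark its alternative starts and its end. They come from the GENCODE 29 transcripts, written 5′ to 3′, with 25 nt of the upstream exon in lower case and the first 25 nt of the last exon in capitals. The third line is the segment of 189 nt between the 5′ splice sites, which BCL2L1-201 keeps and BCL2L1-202 lacks.
BCL2L1-201: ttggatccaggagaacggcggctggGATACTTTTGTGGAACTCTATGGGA
BCL2L1-202: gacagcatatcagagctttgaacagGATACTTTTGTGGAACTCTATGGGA
Segment kept in BCL2L1-201: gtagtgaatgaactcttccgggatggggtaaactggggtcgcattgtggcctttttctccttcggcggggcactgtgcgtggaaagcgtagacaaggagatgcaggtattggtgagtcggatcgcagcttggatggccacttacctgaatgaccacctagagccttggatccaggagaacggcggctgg

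The share of regions in the long intron was close to the intron's share of the gene's length. Together the regions covered 29547 nt, or 49.6% of the gene. The long intron held 33 regions wholly inside it (97.1% of 34, 95% exact Clopper-Pearson interval 84.7 to 99.9%), an interval that includes the intron's 93.3% of the gene. These covered 29021 nt or 52.2% of its length. The exons make up 5.57% of the gene, and 1 region (2.94%, 0.0744 to 15.3%) touched them. That region covered 526 of 3314 exonic nt (15.9%). With 1 exonic region, the counts cannot show whether exons and intron differ, which was not tested. Regions of 1 gene share their RNA, so these shares describe the gene and are not replicate counts.

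The coding sequence is 702 nt, or 1.18% of the gene, and held 0 of the 34 regions, which at 3 counts allows a share of up to 8.82%. The 5′ untranslated exon parts (1.87% of the gene) and the stretches between the merged 5′ exon blocks (1.10%) held 0 as well. Stretches this short could hold 0 of 34 regions by their length alone. The segment between the 5′ splice sites, printed in lower case above, lies at positions 2147 to 2335 (0.317% of the gene) and was likewise not covered. The region nearest to it in the long intron began 6149 nt past the downstream 5′ splice site and 6338 nt past the upstream one.

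The exonic region lay at chr20:30252674-30253199, in the 3′ untranslated part of the last exon. This part is the stretch after the stop codon that commonly carries microRNA and protein binding sites. The region was 526 nt long and covered 35.1% of the 1497 nt of the 3′ untranslated part. It began 552 nt past the stop codon and ended 419 nt short of the annotated end of the gene. The nearest intronic region, chr20:30254082-30254375, stopped 192 nt before the last exon, and this region was singled out after the values had been seen. No region therefore crossed the junction between the long intron and the last exon.

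**Figure D1:**
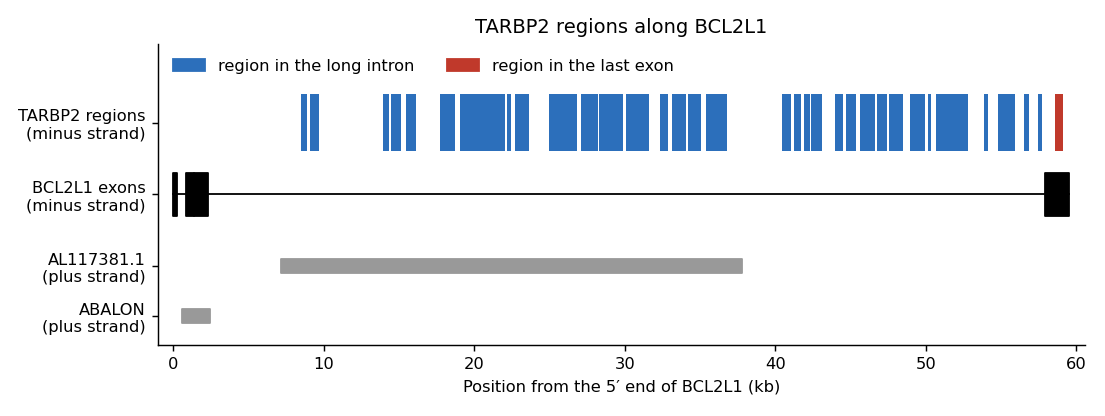
TARBP2 regions (top row), the merged exons of BCL2L1 (black boxes, with introns as a line) and the spans of the antisense genes AL117381.1 and ABALON, against position in kb from the 5′ end of BCL2L1. The 33 blue regions lie in the long intron from position 8485 on, with gaps between them. The red region is the exonic one, and the 5′ exons are free of regions.

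The 5′ end of the gene was empty. The first 8484 nt (14.2% of the gene), which hold all exons but the last and the start of the long intron, had no region. The 5′-most region, chr20:30302891-30303308, was 418 nt long and began at position 8485. The long intron was cut into 3 equal stretches, with regions counted by their centre and covered nt by position. The 5′ stretch held 7 regions and was covered by 30.0%. The middle stretch held 10 and was covered by 65.4%, and the 3′ stretch held 16 and was covered by 61.3%. The longest region, of 3014 nt, was counted in the 5′ stretch. It reached into the middle stretch, so the 65.4% does not come from the 10 regions alone. Median length was highest in the middle stretch, at 1016.5 nt, against 657 nt in the 5′ stretch and 614.5 nt in the 3′. The longest region of the middle stretch, of 1849 nt, was shorter than those of the 5′ (3014 nt) and 3′ (2146 nt) stretches.

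In windows of 5 kb from the 5′ end, the covered share was 0% in the first window, 21.5% in the second and 16.9% in the third. It was 55.5% from 15 to 20 kb, 65.1% from 20 to 25 kb and 89.4% from 25 to 30 kb, the highest of the 12 windows. Coverage thus climbed toward the middle of the gene and then dropped. It was 75.2% from 30 to 35 kb and 29.9% from 35 to 40 kb. From 40 to 55 kb the windows had 61.8%, 76.5% and 57.7%, and the last window, of 4538 nt, had 45.7%. The intron had a pair of coverage maxima, separated by the window from 35 to 40 kb. The exact height depends on the window: the highest share was 100% in windows of 1 kb and 77.2% in windows of 10 kb.

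**Figure D2:**
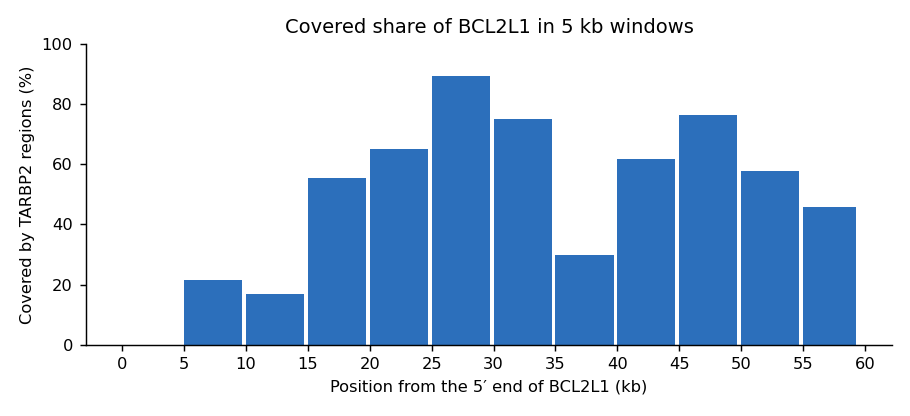
Share of each 5 kb window covered by TARBP2 regions (%), against position in kb from the 5′ end of BCL2L1, with a last window of 4538 nt. The bars are 0% in the first window, 89.4% from 25 to 30 kb and 29.9% from 35 to 40 kb.

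The regions of BCL2L1 were long. Their lengths ran from 236 to 3014 nt around a median of 672.5 nt, and the quartiles were 495.5 and 984.5 nt. The other 23378 regions of the list had a median of 253 nt, with quartiles at 248 and 373 nt. Of the 34 regions, 28 were longer than the upper quartile of the whole list, and 1 was shorter than its median. Long regions are also found in other dense domains, which are runs of regions on 1 strand in which neighbours lie at most 10 kb apart. In the other domains of at least 20 regions the median length was 476 nt, and in those of at least 10 regions 449 nt. BCL2L1 thus stood nearer to these domains than to the list as a whole. Regions longer than 1000 nt numbered 8 of 34 (23.5%, 95% exact interval 10.7 to 41.2%), against 9.81% in the other domains of at least 20 regions and 2.20% of all other regions. The interval treats the regions as independent, so it cannot set BCL2L1 apart from those domains. These 8 supplied 46.5% of the covered nt. No test was made, since the members were chosen from this list and regions of 1 gene are not replicates.

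The longest region, of 3014 nt, lay at chr20:30289743-30292756, from position 19037 to 22050. The next was 2146 nt at chr20:30259005-30261150, in the 3′ part of the intron. The other 3 of the 5 longest were chr20:30284969-30286817 (1849 nt), chr20:30281933-30283469 (1537 nt) and chr20:30280169-30281701 (1533 nt). These 3 lay near each other between positions 24976 and 31624, where the 5 kb window with the highest covered share falls. All 5 were intronic.

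The most common length of the list was missing at BCL2L1. It was the length of 0 of the 34 regions, which allows a share of up to 8.82%. The other minus-strand regions of chromosome 20 had it in 110 of 353 cases (31.2%), and the other minus-strand regions of the list in 27.2%. Of all other regions, on both strands, 19.8% had this length. In the other domains of at least 20 regions it was the length of 5.85% of regions. Of these 22 other dense domains, 4 also had none. Among the 134 other domains of at least 10 regions, 52 had none. The difference from these domains was not tested.

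**Figure D3:**
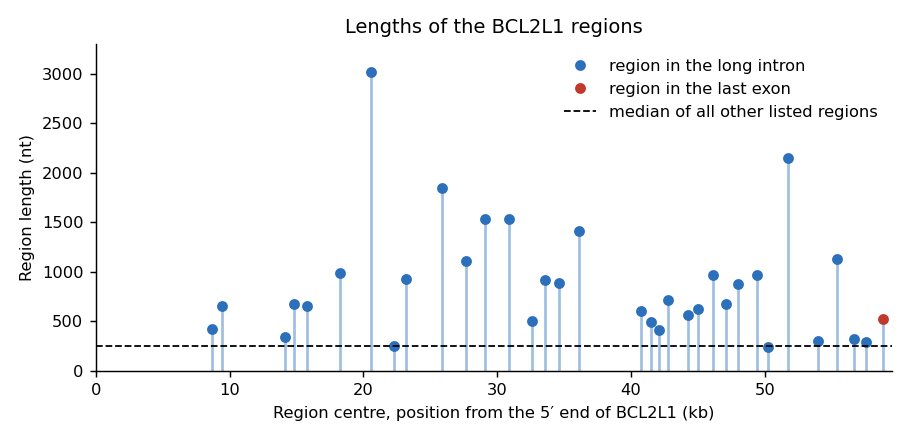
Length of each BCL2L1 region (nt) against the position of its centre in kb from the 5′ end of the gene. The dashed line is the median of all other listed regions, 253 nt, and 33 of the 34 points lie above it.

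Most regions followed each other closely. The 33 gaps between neighbours ran from 104 to 4248 nt around a median of 289 nt, with quartiles at 172 and 653 nt, and 22 of them were at most 500 nt. Joining regions across gaps of up to 500 nt left 12 blocks. The longest block, of 8844 nt at positions 43945 to 52788, held 8 regions, with 79.9% of it covered. The next, of 6649 nt at positions 24976 to 31624, was covered by 90.7% with 4 regions. Closeness within a block follows from the joining. Of the 12 blocks, 5 held a single region, and these were the 5 nearest to the 3′ end of the gene.

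A few wide gaps took much of the sequence between neighbouring regions. The 3 widest supplied 45.2% of the 21088 nt in gaps. The widest, of 4248 nt, lay between chr20:30302068-30302724 (657 nt long) and chr20:30297476-30297819 (344 nt long), near the 5′ end of the bound stretch. The second, of 3629 nt, lay between chr20:30274974-30276387 (1414 nt long) and chr20:30270740-30271344 (605 nt long). It separates the covered maxima seen in the 5 kb windows. The third, of 1650 nt, lay between chr20:30295686-30296337 (652 nt long) and chr20:30293047-30294035 (989 nt long).

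The wide gaps were also where numbers were missing from the region names. Names in the list carry numbers that rise along a chromosome and strand, and most numbers of the series are not among the regions analysed here. From the first to the last region of BCL2L1 the names ran over 47 numbers, of which 34 (72.3%, 95% exact interval 57.4 to 84.4%) were listed. This count starts and ends on listed regions by construction. Up to the nearest listed regions outside the gene the names ran over 114 numbers, of which the same 34 made up 29.8% (21.6 to 39.1%). Over the whole list, on chromosomes 1 to 22 and X, 15.1% were listed. The gene was chosen for its many listed regions, so a share above this restates the choice. Both intervals treat the numbers as independent and give no test against the whole list. The 13 skipped numbers fell in 8 gaps, which ran from 653 to 4248 nt (median 1184.5 nt). The 25 gaps with successive numbers ran from 104 to 731 nt (median 231 nt). The 3 widest gaps skipped 3, 3 and 2 numbers. The sources used here do not give what the skipped numbers stood for. If they stood for regions left out of the list, gaps that skip numbers would be wider by construction. The difference in gap width was not tested.

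**Figure D4:**
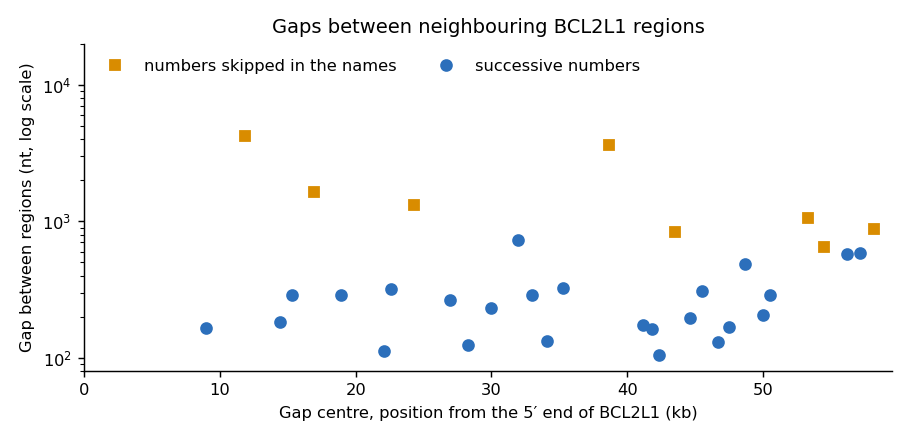
Gap between neighbouring BCL2L1 regions (nt, log scale) against the position of the gap's centre in kb from the 5′ end of the gene. Squares are the 8 gaps in which numbers were skipped, from 653 to 4248 nt, and circles the 25 gaps with successive numbers, from 104 to 731 nt.

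No other minus-strand region lay close to the gene. The nearest minus-strand regions outside BCL2L1 lay 201 kb beyond its 3′ end, at chr20:30050769-30051017, and 895 kb beyond its 5′ end, at chr20:31206782-31206991. Of the 114 numbers between these outer regions, 51 were skipped on the 5′ side and 16 on the 3′ side of the BCL2L1 regions. Numbers skipped on the 5′ side could lie in the empty first 8484 nt or beyond the gene, which these files cannot tell apart. With the gene's 34 regions, 8.79% of the 387 minus-strand regions of chromosome 20 fell in BCL2L1.

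No region lay on the plus strand of BCL2L1. The count over the gene was 0, and it was also 0 with 10 kb added on either side. The gene was chosen for its minus-strand regions, so this gives no share of strands. The nearest plus-strand regions were chr20:30330803-30331602, 19.0 kb beyond the 5′ end, and chr20:30144742-30145189, 107 kb beyond the 3′ end.

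A pair of noncoding genes is annotated antisense to BCL2L1, on the plus strand. ABALON (ENSG00000281376.1), of 1903 nt, faces the 5′ exons and had 0 regions on either strand. AL117381.1 (ENSG00000236559.1) spans 30.6 kb, at positions 7165 to 37774 of BCL2L1, and had 0 plus-strand regions. Opposite it, on the minus strand, lay 17 of the BCL2L1 regions, and none of these overlapped the 374 nt of AL117381.1 exons. Whether AL117381.1 or ABALON is transcribed in these cells cannot be read from the list.

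Among the 135 same-strand domains of at least 10 regions, the BCL2L1 domain ranked 3 by number of regions and 4 by covered share. Its regions covered 58.4% of a span of 50.6 kb. The median of the other 134 domains was 24.0%, with a range of 8.54 to 67.3%. The gene was chosen for this density, so these ranks restate the choice. By the median length of its regions it ranked 12 and by its longest region also 12. Of the 23 domains of at least 20 regions it had the highest covered share and the second highest median length. Its median gap of 289 nt lay below the domain medians of 21 of the other 22, which ran from 277.5 to 2068 nt. Lack of opposite-strand regions was common among these domains: 14 of 23 had 0. In windows of the gene's length laid end to end along each strand, 1 of 13724 other windows that held a region had more than 34. The median window had 1. The 34 were counted over the gene itself, while windows laid end to end can split a dense domain, which favours BCL2L1.

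The 3 domains closest in number of regions differed from BCL2L1 in other ways. The plus-strand domain chr1:228743533-228782206, of 33 regions, was covered by 58.0%, with a median length of 751 nt. It was close to BCL2L1 in coverage and median length but not in strand or in its longest region, of 1135 nt against 3014 nt. It had 31 regions on the other strand of the same stretch, where BCL2L1 had 0. The minus-strand domain facing it, chr1:228742455-228782155, had 32 regions and a coverage of 48.5%, with a median length of 597.5 nt and 33 regions opposite. The domain chr12:57739222-57823712 was sparser, its 30 regions covering 18.5% of 84.5 kb, with a median length of 421.5 nt and 2 regions opposite. Of these 3, the domain with 33 regions also had no region of the most common length, while the other 2 had 9.38% and 10% of their regions at it.

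**Figure D5:**
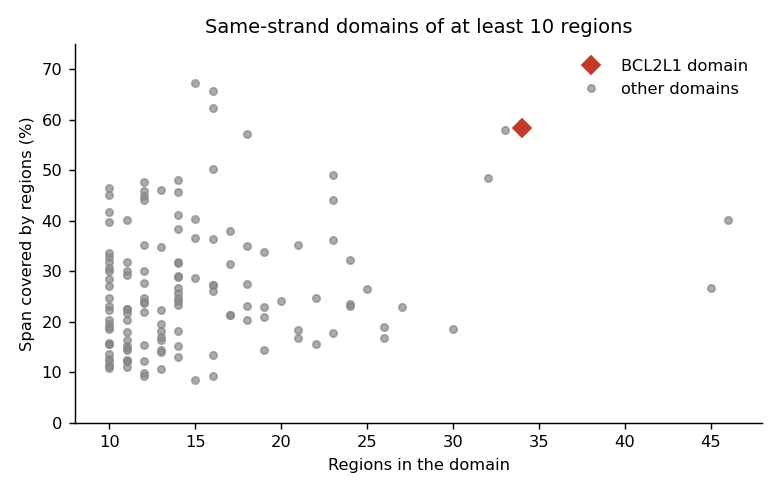
Share of the span covered by regions (%) against the number of regions, for the 135 same-strand domains of at least 10 regions. The BCL2L1 domain (red diamond) stands at 34 regions and 58.4%, and the domain nearest to it, on chromosome 1, at 33 regions and 58.0%.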

How the data were processed

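Per the labels' protocols, RNA was prepared after cross-linking by HITS-CLIP as published earlier. The submitters' processing notes name Bowtie and hg19. The sources used here do not give the aligner version, how regions were called or filtered, how reads with several alignments were treated, or how the replicates were combined. The authors deposited region coordinates (0-based starts, printed here 1-based) and a score of 1 in each row. Without replicate columns, neither replicate agreement nor depth nor pairing could be examined. The labels do not say if the replicates were separate cultures.

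Minus-strand rows overlapping BCL2L1 by at least 1 nt were taken. The GENCODE 29 gene model was laid on the gene's hg19 span, which has the same length. Covered nt, gaps and domains (neighbours on 1 strand at most 10 kb apart) were computed with Python 3.11.15, numpy 2.4.6, pandas 2.3.3 and scipy 1.17.1, and figures drawn with matplotlib 3.10.9. The interval functions were tested on simulated data. Regions named are the 5 longest, those at the gene's ends, over exons and beside the 3 widest gaps, and the 3 domains closest in number of regions. The gene, rules and settings were chosen with earlier results of these data known. Alternatives changed the regions used, the joining, the gene model, the windows and the bounds.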

Additional observations from a re-analysis of the deposited data

How the results depend on the processing

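The alternatives numbered 23, for 11 values. Covered nt come in 34 regions and are not independent, so no spread was available against which to judge a covered share, and its values are given as they stand. Joining regions within 500 nt left 12 in place of 34 and, with the joined gaps counted as covered, raised the covered share of BCL2L1 to 57.9% from 49.6%. The span of 1 coding transcript gave 50.6%. The exons of 1 transcript were covered by 20.2% in place of 15.9%, since fewer 5′ exons enter. Regions at or above the list median of 253 nt covered 51.8% of the long intron in place of 52.2%. The highest covered share of a window was 100% at 1 kb and 77.2% at 10 kb, in place of 89.4% at 5 kb. The locus ranked 1 in place of 2 when windows were laid from 0.5 window further on. The share of name numbers that are listed was 29.8% when counted up to the outer neighbours and 72.3% within the gene. Moving the gene model by 100 nt to either side changed neither the exonic region count nor its covered share. No paired analysis was possible because the list merges both replicates of a single group, and no replicate could be left out. Depth is unknown, so regions could not be weighed by it.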

Other observations

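Genes next to BCL2L1 were placed by the same shift, on the assumption that it also holds just outside the gene. TPX2, a spindle assembly factor on the plus strand, is the neighbour beyond the 5′ end and, at 62.5 kb, close to BCL2L1 in length. It held 6 plus-strand regions with a median length of 365.5 nt, which covered 4.13% of it, and 0 minus-strand regions. On the other side, COX4I2, a subunit of cytochrome c oxidase, and ID1, an inhibitor of DNA binding by basic helix-loop-helix factors, are shorter, at 7.12 and 1.23 kb, and held 0 regions on either strand. These genes were looked at after the regions of BCL2L1 had been examined, and the levels of their RNAs are unknown here.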
